A study of Mus musculus with 9 samples.

Results

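The caudal-type homeobox genes *Cdx1*, *Cdx2* and *Cdx4* were examined together with 7 genes known as targets or components of Wnt/β-catenin signalling, namely *Nkx1-2*, *T*, *Sp5*, *Axin2*, *Lef1*, *Tcf7* and *Notum*. They were picked by gene symbol with their values in the 3 media below already known, so their differences between media are a description and carry no test. All 10 were among the 29069 genes of the table, and all 10 were among the 18156 genes with a mean normalised read count above 5 over the 9 samples, to which tests were applied. Total RNA was sequenced from mouse embryonic stem cells (mESC) of the established D3 line, adapted to growth without a feeder layer, after 24 h in 1 of 3 media with 3 samples each. Ground state medium (GS) was N2B27, free of serum, with the MEK inhibitor PD0325901 at 1 μM, the GSK-3 inhibitor CHIR99021 at 3 μM and leukaemia inhibitory factor (LIF) at 20 ng/mL. Differentiation medium (DM) was DMEM with 10% fetal bovine serum (FBS) and neither inhibitors nor LIF. The NO medium was DM with 250 μM DETA/NO, a donor that releases nitric oxide. GS and DM thus differed in both inhibitors, LIF, serum and basal medium at once, whose contributions cannot be told apart. NO and DM differed by the donor alone, and no sample combined the donor with GS.

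In the Wnt/β-catenin pathway, a cytoplasmic complex of Axin, APC, casein kinase 1 and GSK-3 phosphorylates β-catenin and so marks it for degradation. A Wnt ligand or an inhibitor of GSK-3 lets β-catenin accumulate and reach the nucleus, where it binds TCF/LEF factors at their target genes. Among such targets are feedback inhibitors of the pathway itself and, in the posterior embryo, *T*, *Sp5* and the Cdx genes, which act in the primitive streak and tail bud during elongation of the body axis.

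The bases upstream of the members are shown here because several of these genes followed the same order of media, and TCF/LEF factors recognise a short core motif. Upstream sequences from RefSeq (GRCm38.p6) were found for 8 of the 10 genes, with none for *Cdx1* and *Notum*, and the 250 bases before each of 12 start sites were searched on both strands. The letters CTTTGA (TCF/LEF core) were searched, together with TTTATNG (Cdx) and GGTGTGA (T-box), motifs that do not overlap in the windows printed. Of 32851 upstream windows of this length in RefSeq, 13.8% held the TCF/LEF letters, 9.8% the Cdx letters and 3.3% the T-box letters. The 3 windows with TCF/LEF letters are printed 5′ to 3′ on the strand of the gene, up to the base before the start site, and capitals mark the letters matched, TCAAAG being the TCF/LEF core read on the opposite strand. They are *Sp5* at chr2:70474673-70474922, *T* at chr17:8434173-8434422 and a start site inside the *Lef1* gene at chr3:131156044-131156293, all on the plus strand.
Sp5: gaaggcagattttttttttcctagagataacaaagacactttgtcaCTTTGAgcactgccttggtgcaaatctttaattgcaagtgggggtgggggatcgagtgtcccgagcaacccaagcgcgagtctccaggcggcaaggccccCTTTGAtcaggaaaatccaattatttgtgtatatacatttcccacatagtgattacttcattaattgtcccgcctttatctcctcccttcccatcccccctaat
T: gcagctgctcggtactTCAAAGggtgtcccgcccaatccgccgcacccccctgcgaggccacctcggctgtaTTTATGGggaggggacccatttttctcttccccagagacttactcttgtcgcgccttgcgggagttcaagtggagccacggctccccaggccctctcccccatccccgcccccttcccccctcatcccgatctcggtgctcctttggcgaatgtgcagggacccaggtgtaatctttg
Lef1: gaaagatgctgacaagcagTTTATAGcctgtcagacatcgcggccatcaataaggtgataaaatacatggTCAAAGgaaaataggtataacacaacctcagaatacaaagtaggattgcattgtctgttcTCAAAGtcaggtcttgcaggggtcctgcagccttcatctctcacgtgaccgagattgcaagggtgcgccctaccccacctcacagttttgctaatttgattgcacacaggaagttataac

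The *Sp5* window held the TCF/LEF letters 2 times, at 204 and 104 bases before the start, a number reached or passed in 1.37% of all windows. In the *T* window they stood once, 234 bases before the start, with the Cdx letters at 178. The *Lef1* window held 2 TCF/LEF matches, at 180 and 120 bases, and 1 Cdx match at 231, whereas the other 3 start sites of *Lef1* had no match to any of the letters. *Tcf7* had a Cdx match 8 bases before 1 of its 2 starts. No letters were matched upstream of *Cdx2*, *Cdx4*, *Nkx1-2* and *Axin2*. Such matches are descriptions of sequence and were not linked to binding.

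The table holds read counts divided by a size factor and rounded, here called normalised read counts, and 1 read was worth between 0.7009 and 1.3231 of these units. Estimated from this worth, the assigned reads ranged from 14308617 to 27064952 per sample. No 2 samples of a medium held identical values. Libraries were sequenced 2 to a chip, and which of them shared one is not given. According to the methods of the study, RNA was isolated from a dish for each sample. Whether the dishes were grown on separate occasions is not given for these samples. The spread between them may thus be smaller than that between independent experiments. Across all genes, NO replicate 2 stood apart on the first principal component, at 131.2 against 25.9 and 67.1 for the other NO samples and -49.1 to -26.0 for GS and DM. *Pou5f1*, *Sox2* and *Nanog*, which define pluripotent cells, were at 2292 normalised counts or more in every sample. They were not constant. *Pou5f1* had 8983, 4276 and 9978 in NO against 11988 to 15354 in DM, a log2 difference of -0.95 ± 0.26. *Nanog* had 7596 to 8190 in DM against 12184 to 15465 in GS, a log2 difference of -0.80 ± 0.19. The sum of 12 embryonic stem cell markers ranged from 118774 to 122144 in GS and from 98791 to 108368 in DM, and was 102261, 62261 and 95078 in the 3 NO samples. In such bulk RNA, fewer cells that express a gene and less of its RNA per cell cannot be told apart.

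*Cdx1* and *Cdx2* were abundant or well detected in GS and close to absent in DM, with intermediate values in NO, whereas *Cdx4* was barely detected in any medium. All 3 encode homeodomain transcription factors that pattern the posterior embryo, and *Cdx2* is also required for trophectoderm. *Cdx1* (ENSMUSG00000024619, chromosome 18, 61018862 to 61036199, minus strand) had 720, 660 and 517 normalised read counts in GS, 22, 20 and 16 in DM, and 51, 46 and 52 in NO. The 3 media did not overlap, and every NO sample lay above every DM sample and far below every GS sample. Its mean was 632.3 ± 104.3 (SD, n = 3) in GS, and the means in DM and NO were 3.1% and 7.9% of it. On the log2(value + 1) scale of the fit, *Cdx1* differed by -4.96 ± 0.22 (SE, n = 3 per medium) in DM vs. GS and by 1.33 ± 0.22 in NO vs. DM.

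*Cdx2* (ENSMUSG00000029646, chromosome 5, 147300805 to 147307270, minus strand) had 54, 75 and 46 normalised read counts in GS, 0, 4 and 0 in DM, and 3, 14 and 5 in NO. GS was separate from both other media, but DM and NO overlapped, and the highest NO value was that of replicate 2. These DM values correspond to about 6 reads over the 3 samples, so the difference of 2.06 ± 0.69 (log2, SE) in NO vs. DM rests on very few reads. *Cdx4* (ENSMUSG00000031326, chromosome X, 103321398 to 103330592, plus strand) had 5, 14 and 0 in GS, 7, 7 and 7 in DM, and 8, 14 and 4 in NO. Its 3 media overlapped, with 21, 25 and 25 estimated reads in GS, DM and NO, so that a lower level in DM or NO than in GS was hardly detectable at this depth.

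*T* and *Nkx1-2*, genes of the primitive streak and tail bud, had the same order of media as *Cdx1*. *T*, which encodes the T-box factor Brachyury (ENSMUSG00000062327, chromosome 17, 8434423 to 8442496, plus strand), had 137, 183 and 131 normalised read counts in GS, 10, 1 and 0 in DM, and 8, 28 and 22 in NO. All GS samples were above all others, while the lowest NO sample was under the highest DM sample. The mean of *T* in NO was 12.9% of that in GS and 5.27 times that in DM, where 13 estimated reads were found in all. Most of the DM signal of *T* was in replicate 1, and the log2 difference in NO vs. DM of 2.70 ± 0.74 was 3.68 without that sample and 1.95 without DM replicate 3. *Nkx1-2*, a homeobox gene of axial progenitors (ENSMUSG00000048528, chromosome 7, 132594878 to 132599637, minus strand), had 375, 540 and 442 in GS, 17, 13 and 9 in DM, and 34, 27 and 25 in NO. The media were separate, as for *Cdx1*, and the mean was 2.9% of GS in DM and 6.3% in NO. An exon of *Nkx1-2* overlaps the gene model *Gm16764*, and use of the strand in counting was not stated. The authors excluded reads overlapping several genes, so reads of the shared stretch may be missing from the count.

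*Sp5* and *Axin2* are direct targets of β-catenin in many tissues. *Sp5*, a zinc finger transcription factor whose upstream window is printed above (ENSMUSG00000075304, chromosome 2, 70474923 to 70477729, plus strand), had 187, 327 and 237 normalised read counts in GS, 1, 5 and 5 in DM, and 9, 75 and 14 in NO. No media overlapped, but NO replicate 2 held more than the other NO samples together, and the SD in NO (36.7) was larger than the mean (32.7). The difference in NO vs. DM was 2.44 ± 0.68 on the log2 scale, and 1.56 without NO replicate 2. *Axin2*, a scaffold of the complex that destroys β-catenin and a feedback inhibitor (ENSMUSG00000000142, chromosome 11, 108920349 to 108950783, plus strand), had 1356, 1592 and 1307 in GS, 300, 384 and 412 in DM, and 261, 767 and 416 in NO. GS was above both other media, but *Axin2* kept 25.8% of its GS mean in DM, a larger share than that of *Cdx1*, *Cdx2*, *Nkx1-2*, *T* and *Sp5*. NO and DM overlapped, and their log2 difference was 0.27 ± 0.30, or -0.14 without NO replicate 2. *Axin2* shares exon sequence with the model *Gm11670*.

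*Notum* and *Lef1* had another order, with the highest values in DM and the lowest in NO. *Notum*, a secreted enzyme that removes the lipid from Wnt ligands and so inactivates them (ENSMUSG00000042988, chromosome 11, 120653788 to 120661175, minus strand), had 419, 600 and 422 normalised read counts in GS, 586, 641 and 708 in DM, and 369, 198 and 357 in NO. GS and DM overlapped, and all NO samples were below all others. The NO vs. DM difference was -1.11 ± 0.24 (log2, SE), and -0.82 without NO replicate 2. Exons of *Notum* overlap *Myadml2os* and *Notumos*, with the limit given for *Nkx1-2*. *Lef1*, one of the TCF/LEF factors and itself a target of the pathway (ENSMUSG00000027985, chromosome 3, 131110471 to 131224356, plus strand), had 29, 24 and 16 in GS, 42, 46 and 52 in DM, and 7, 10 and 3 in NO. The 3 media were separate, in the order DM, GS, NO. *Lef1* differed by 1.02 ± 0.42 in DM vs. GS and by -2.75 ± 0.42 in NO vs. DM on the log2 scale, from 66, 164 and 20 estimated reads in GS, DM and NO. It shares exon sequence with the model *Gm43352*.

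*Tcf7*, which encodes the TCF/LEF factor TCF1 (ENSMUSG00000000782, chromosome 11, 52252371 to 52283014, minus strand), was abundant in all 3 media. It had 1242, 1115 and 916 normalised read counts in GS, 967, 1032 and 1112 in DM, and 1044, 1493 and 1139 in NO. All media overlapped. Its log2 difference was -0.06 ± 0.17 in DM vs. GS, 0.16 ± 0.17 for NO against GS and 0.23 ± 0.17 for NO against DM, none larger than the spread between replicates.

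**Figure D1:**
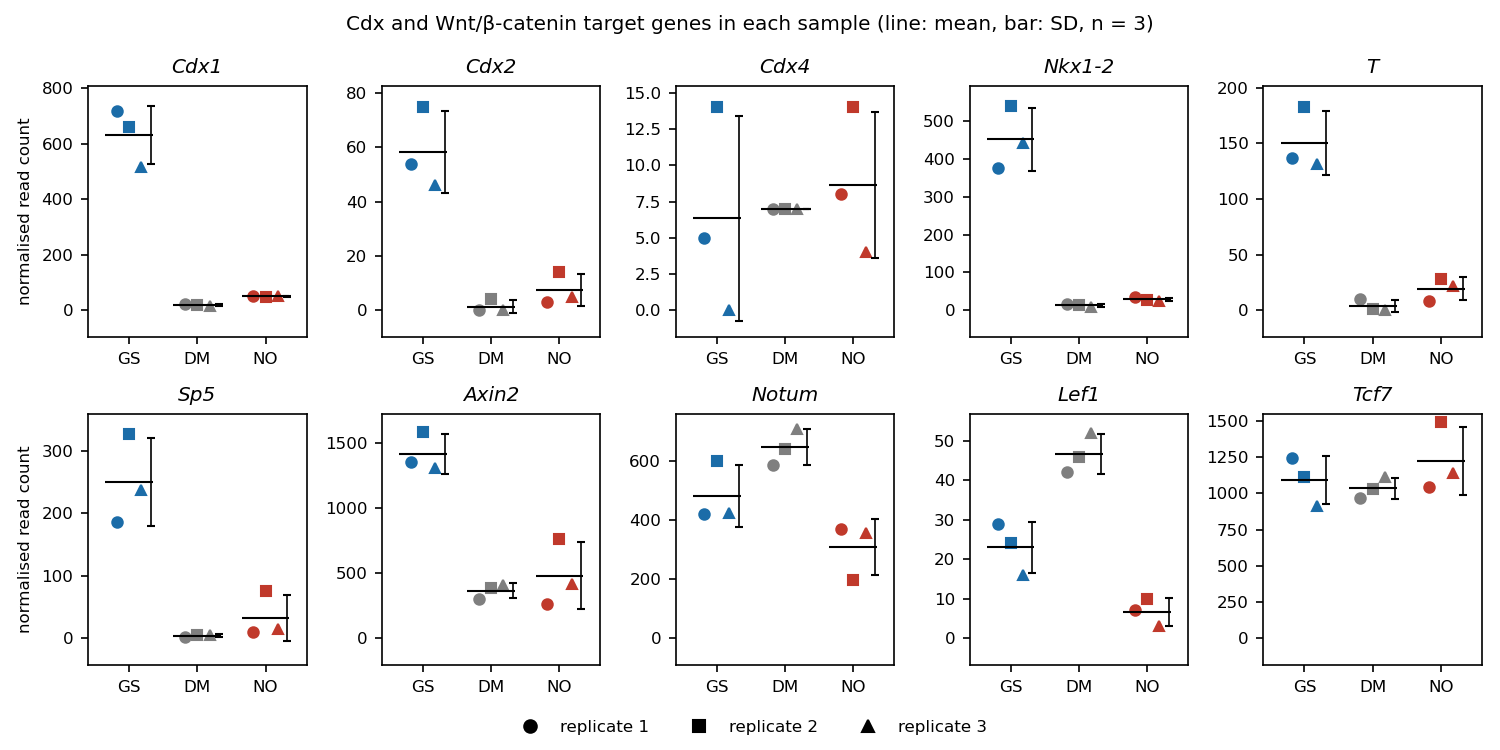
Normalised read count of each of the 10 genes (y axis, 1 panel per gene, each with its own scale from 0) in the 3 samples of GS, DM and NO (x axis). Marker shapes give the replicate number, lines the mean and bars the SD. *Cdx1*, *Cdx2*, *Nkx1-2*, *T*, *Sp5* and *Axin2* are highest in GS, *Notum* and *Lef1* are highest in DM, and *Cdx4* and *Tcf7* overlap between all media.

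In DM vs. GS, 6 of the 10 genes were lower in DM past both thresholds used for all genes, an adjusted p under 0.05 and a log2 fold change of at least 1 in size, and none was higher. They were *Cdx1*, *Cdx2*, *Nkx1-2*, *T*, *Sp5* and *Axin2*. Over all genes tested, 4.20% passed both thresholds, 2.94% as higher and 1.27% as lower in DM. Without overlap between the 2 media, 6 members were lower and 1, *Lef1*, was higher, against 13.5% and 16.2% of all genes. As the genes were chosen on these media, nothing is read from these counts. The median log2 fold change was -3.46 over the members and 0.00 over all genes. The same 6 genes passed in each of the 9 fits that left out 1 sample.

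In NO vs. GS, 7 members were lower past both thresholds, the same 6 and *Lef1*, and none was higher. Among all genes 11.7% passed, 10.1% as higher and 1.64% as lower in NO. All but *Cdx4* and *Tcf7* were lower in every NO sample than in every GS sample, so 8 did not overlap on the lower side and 0 on the higher, against 18.3% and 20.9% of all genes. The log2 fold changes ran from -3.93 ± 0.28 for *Nkx1-2* through -3.63 ± 0.22 for *Cdx1*, -3.44 ± 0.68 for *Sp5*, -3.04 ± 0.74 for *T* and -3.03 ± 0.69 for *Cdx2* to -1.73 ± 0.42 for *Lef1* and -1.69 ± 0.30 for *Axin2*. *Notum* was at -0.67 ± 0.24, under the fold threshold. The median was -2.38 over the members and -0.02 over all genes. Without GS replicate 2 only 4 members passed, *Cdx2*, *T* and *Lef1* being lost, and *Lef1* was also lost without GS replicate 1.

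In NO vs. DM, *Cdx1*, *Nkx1-2*, *T* and *Sp5* were higher and *Lef1* and *Notum* lower past both thresholds, 6 of 10 in all. Among all genes 8.55% passed, 6.78% as higher and 1.77% as lower in NO. *Cdx1*, *Nkx1-2* and *Sp5* were higher without overlap and *Lef1* and *Notum* lower without overlap, against 18.1% and 15.3% of all genes. The median was 0.69 over the members and 0.00 over all genes. All 4 higher genes stayed far below GS. The labels give no pairing of samples between these 2 media. With the replicate number as a block *Cdx2* passed as well, which made 7. The count was 3 without DM replicate 3, NO replicate 2 or NO replicate 3, 4 without DM replicate 2 or any 1 GS sample, and 5 without DM replicate 1. *Sp5* passed in 1 of these 9 fits, *T* in 2, *Nkx1-2* in 5, *Notum* in 8, and *Cdx1* and *Lef1* in all 9. *Nkx1-2* was lost without DM replicate 2 or 3 or NO replicate 1 or 3, with its lowest value, 0.89, without DM replicate 3. The count was 2 (*Lef1* and *Notum*, none higher) after quantile normalisation, under which *Cdx1* was at 0.98 and *Nkx1-2* at 0.76. DM vs. GS and NO vs. DM share the DM samples, and NO vs. GS shares samples with both, so the 3 comparisons are not independent.

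**Figure D2:**
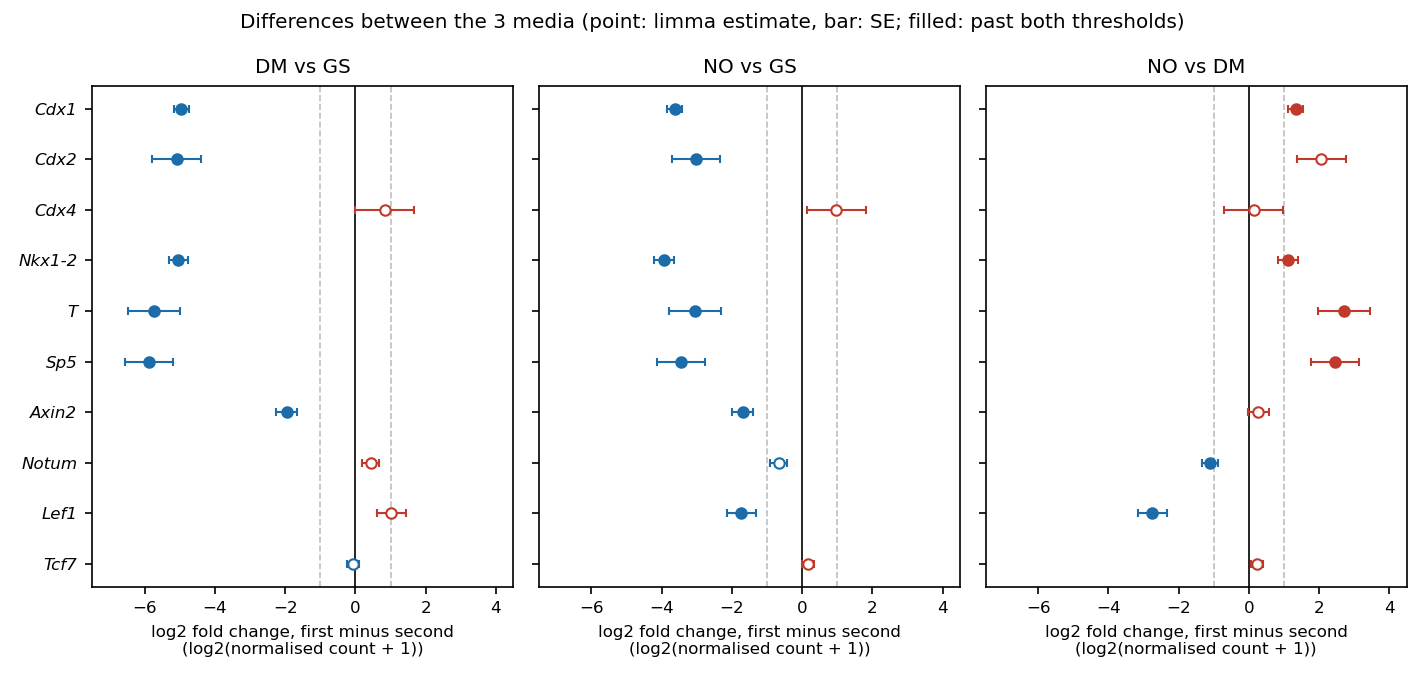
Log2 fold change of each gene (x axis, on log2(normalised count + 1), first medium minus second) for DM vs. GS (left), NO vs. GS (middle) and NO vs. DM (right). Points are limma estimates from n = 3 per medium, bars are SE, filled points passed both thresholds and dashed lines mark a log2 fold change of 1 in size. *Cdx1*, *Nkx1-2*, *T* and *Sp5* lie on the left in the first 2 panels and on the right in the last one, where *Lef1* and *Notum* lie on the left.

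Levels were compared between genes per kb of exon. In GS the order of mean normalised counts per kb was *Tcf7* (415.6), *Cdx1* (361.3), *Axin2* (257.6), *Notum* (199.5), *Nkx1-2* (138.6), *Sp5* (119.2), *T* (64.92), *Cdx2* (25.79), *Cdx4* (3.21) and *Lef1* (2.62). The ranges over the 3 GS samples overlapped for the neighbours *Tcf7* and *Cdx1*, *Axin2* and *Notum*, *Nkx1-2* and *Sp5*, and *Cdx4* and *Lef1*, and not for the other neighbours. *Cdx1* thus stood among the most abundant members in GS. In DM it came to 11.03 per kb, next to 395.0 for *Tcf7*, 267.9 for *Notum* and 66.35 for *Axin2*, and the other members were between 0.57 and 5.31. NO had 28.40 for *Cdx1*, 15.57 for *Sp5*, 8.79 for *Nkx1-2* and 8.34 for *T*. *Lef1* had the lowest mean of the members in GS and NO, at 2.62 and 0.76 per kb, with *Tcf7* as the abundant TCF/LEF member in each medium. In GS its range (1.8 to 3.3) lay within that of *Cdx4* (0.0 to 7.1), so their order there is not settled.

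**Figure D3:**
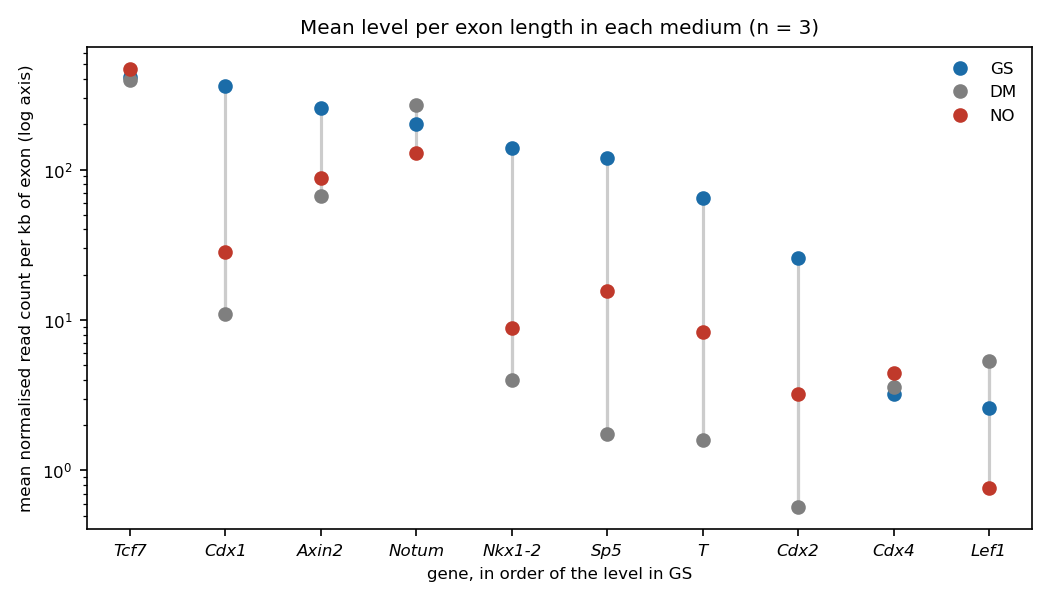
Mean normalised read count per kb of exon (y axis, log scale) of the 10 genes (x axis, in order of the GS level) in GS, DM and NO (n = 3 per medium, no error shown). Grey lines join the 3 media of a gene. *Cdx1* is at 361.3 per kb in GS and 11.03 in DM, while *Tcf7* stays between 395.0 and 466.8.

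The members did not vary alike within NO. Replicate 2 had the highest NO value for 7 of the 10 genes, and among all genes tested it was the highest for 41.8%. *Cdx1* and *Nkx1-2* were not among the 7, and *Notum* was lowest there. That sample also had the lowest sum of embryonic stem cell markers, given above, and the highest sum of 9 trophoblast markers, 1571 against 415 and 614 in the other NO samples, 298 to 323 in DM and 455 to 585 in GS. Among all genes tested, 6.78% rose and 1.77% fell in NO vs. DM. Of the trophoblast markers, *Elf5* and *Plac1* were at or below 13 and 4 normalised counts in every sample. Of 8 trophoblast markers tested, 5 rose in NO vs. DM, *Gata3*, *Tfap2c*, *Hand1*, *Krt7* and *Gcm1*, and none fell. *Hand1* is the weakest of these calls (adjusted p = 0.0452), lost without any 1 sample except NO replicate 1, *Gata3* was lost without DM replicate 2, and *Gcm1* without DM replicate 1 or 2 or NO replicate 2 or 3. *Tfap2c* fell in DM vs. GS (-2.75 ± 0.34, adjusted p = 0.000694). The sum of 8 primitive endoderm markers, most of it *Lama1*, was 7550 to 8354 in GS, 2929 to 3607 in DM, and 4602, 3583 and 4275 in NO. Another gene of that list, *Gata6*, rose in NO vs. DM (3.13 ± 0.72, adjusted p = 0.0181) and against GS (2.87 ± 0.72, adjusted p = 0.0175), with 20, 234 and 90 normalised counts in NO and at most 15 elsewhere. Its call against DM was lost without DM replicate 1 or 2 or NO replicate 3, and that against GS without GS replicate 2 or 3 or NO replicate 2 or 3. Over the 6 genes of the list that were tested, the median log2 fold change was 0.89 for NO against GS and 1.22 for NO against DM. The primitive streak and mesoderm markers *Mesp2* and *Hand1* rose in NO vs. DM, 2 of 8 tested. *Kdr* missed the fold threshold alone there (0.97 ± 0.26, adjusted p = 0.0329). *Eomes* and *Gsc* fell in DM vs. GS and also in NO vs. GS. The median over these 8 genes was -0.46 in DM vs. GS, -0.06 for NO against GS and 1.14 for NO against DM. *Gsc*, a homeobox gene of the anterior streak, had means of 36.7, 6.0 and 5.0 in GS, DM and NO (-2.46 ± 0.45, adjusted p = 0.0071 in DM vs. GS), and its mean was not higher in NO than in DM. *Mesp1* rose in NO vs. GS (3.08, adjusted p = 0.0272), lost without GS replicate 2 or 3 or NO replicate 2 or 3, and *Mesp2* and *Hand1* rose there too. The list summed to 310, 510 and 372 in NO, 256 to 305 in DM and 436 to 519 in GS. The fibroblast sum was 213, 306 and 233 in NO, 231 to 249 in DM and 99 to 122 in GS, with *Postn*, *Lum* and *Twist2* at or below 10 throughout. Of 4 fibroblast genes tested, *Thy1* rose in DM vs. GS (1.70 ± 0.18, adjusted p = 0.000303) and for NO against GS (1.47 ± 0.18, adjusted p = 0.000676). *Col1a1* rose in NO vs. DM (1.56 ± 0.39, adjusted p = 0.0239), lost without DM replicate 1 or 2 or NO replicate 2, and against GS (1.49 ± 0.39, adjusted p = 0.0207), lost without GS replicate 2 or 3 or NO replicate 2. The part of such cells in the values of *Cdx2*, *T* or the other members was not tested.

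Over the 9 samples, *Cdx1* and *Nkx1-2* correlated with r = 0.99 (Pearson, log2(value + 1)), *Sp5* and *Cdx2* with 0.96, *Sp5* and *Axin2* with 0.95, and *Lef1* and *Notum* with 0.72. These are descriptions of values that share 3 media and 9 libraries. Among 11248 other genes with a mean above 50, clone and model names left out, those most like *Cdx1* over the same samples were *Socs3* (r = 0.990), *Dmgdh* (0.989), *Kdm3b* (0.985), *Slc35g1* (0.976) and *Sh2d4b* (0.976). *Socs3*, a feedback inhibitor of LIF and STAT3 signalling, had means of 2844.0, 1306.0 and 1535.7 in GS, DM and NO, a smaller range than that of *Cdx1*. The genes most like *T* were *Atp6v1b2* (0.987), *Htr5a* (0.980), *Sumf1* (0.962), *Dusp10* (0.961) and *Letmd1* (0.957). *Htr5a* had means of 128.3, 5.0 and 30.0, close to those of *T*, whose means were 150.3, 3.7 and 19.3.

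Other genes of the pathway were listed by role, and of 97 genes 88 were tested with limma. Between GS and DM, 4 of them rose in DM and 6 fell. Between GS and NO, 14 rose in NO and 2 fell, and 13 rose and 1 fell in NO vs. DM. The last 2 splits were 11 to 4 and 11 to 3 after quantile normalisation. Among all genes tested, 2.94% rose and 1.27% fell in DM vs. GS, and 10.1% and 1.64% in NO vs. GS. In NO vs. DM these shares were 6.78% and 1.77%. Of all genes past both thresholds, 86.0% were higher in NO against GS and 79.3% against DM. The count of pathway genes for NO vs. GS was 9 without GS replicate 3, and that for NO vs. DM was 24 without NO replicate 1. Median log2 fold changes over the 88 genes were 0.03, 0.08 and 0.04, next to 0.00, -0.02 and 0.00 over all genes.

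Apart from the member *Axin2*, few transcripts of the complex that controls β-catenin passed both thresholds. *Ctnnb1*, which encodes β-catenin itself, had means of 19564.7, 19774.7 and 20278.7 in GS, DM and NO, and its log2 difference in DM vs. GS was 0.01 ± 0.16 (adjusted p = 0.987). Of 17 genes of the complex and its cytoplasmic relay, *Axin2* not among them, none passed in DM vs. GS or NO vs. DM, and *Apc2* alone rose in NO vs. GS (1.52 ± 0.30, adjusted p = 0.00567). *Gsk3a* and *Gsk3b*, which encode the kinase blocked by CHIR99021 in GS, differed by 0.01 ± 0.13 (adjusted p = 0.983) and -0.66 ± 0.18 (adjusted p = 0.0478) in DM vs. GS, the latter under the fold threshold. *Apc* was at -0.34 ± 0.19 (adjusted p = 0.359). None of 14 nuclear partners and repressors passed both thresholds in any comparison. Some missed the fold threshold alone. In DM vs. GS these were *Tle4* (0.69 ± 0.11, adjusted p = 0.00415) and *Ctbp2* (0.51 ± 0.14, adjusted p = 0.0446). In NO vs. DM they were *Tle4* (-0.58 ± 0.11, adjusted p = 0.00987) and *Tle1* (-0.61 ± 0.13, adjusted p = 0.0148). *Tcf7l1*, the main repressing TCF of these cells, was at 0.48 ± 0.22 in DM vs. GS (adjusted p = 0.246) and -0.62 ± 0.22 in NO vs. DM (adjusted p = 0.0748), and *Tcf7l2* at 0.09 ± 0.20 and 0.05 ± 0.20 (adjusted p = 0.855 and 0.891). *Tcf7l1* and *Tcf7l2* are paralogues of *Lef1* and *Tcf7*, so among these 4 genes only *Lef1* was past both thresholds, lower in NO than in either other medium.

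Some target genes outside the member list also had their lowest values in DM. Of 16 other targets tested, 4 fell in DM vs. GS, *Rnf43*, *Dkk1*, *Wif1* and *Cd44*, and *Myc* rose. Among all genes tested, 1.27% fell and 2.94% rose there. *Apcdd1* missed the fold threshold alone in DM vs. GS (-0.90 ± 0.17, adjusted p = 0.00802). *Rnf43*, a ubiquitin ligase that removes Wnt receptors from the membrane, had 80, 89 and 65 normalised read counts in GS, 11, 14 and 26 in DM, and 60, 142 and 67 in NO. It fell in DM vs. GS (-2.21 ± 0.39, adjusted p = 0.00531), rose in NO vs. DM (2.31 ± 0.39, adjusted p = 0.00498), and in NO overlapped with GS, where *Cdx1* and *Axin2* remained lower. *Wif1*, a secreted Wnt inhibitor, had 18, 19 and 24 in GS, 2, 0 and 1 in DM, and 4, 20 and 9 in NO. It fell in DM vs. GS (adjusted p = 0.00483) and rose in NO vs. DM (adjusted p = 0.0225), the latter lost without DM replicate 2, NO replicate 2 or NO replicate 3. *Cd44*, a hyaluronan receptor, had 54, 31 and 49 in GS, 14, 11 and 9 in DM, and 65, 280 and 88 in NO, and rose in NO vs. DM (3.28 ± 0.48, adjusted p = 0.00288). The falls of *Cd44* (adjusted p = 0.0377) and of *Dkk1*, a secreted inhibitor of LRP co-receptors (adjusted p = 0.0491), in DM vs. GS were each lost without any 1 sample except NO replicates 1 and 2.

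*Myc*, a growth-promoting transcription factor with many inputs besides Wnt, went the other way from *Cdx1* on leaving GS. It rose in DM vs. GS by 1.54 ± 0.22 (adjusted p = 0.00154), from 297, 503 and 339 normalised counts to 1222, 1046 and 988. *Jun*, an immediate early transcription factor, rose in NO vs. GS (1.94 ± 0.50, adjusted p = 0.0195), a call lost without any 1 GS sample, and in NO vs. DM (1.82 ± 0.50, adjusted p = 0.0343), lost without any 1 sample except NO replicates 1 and 2. NO replicate 2 held 1219 normalised counts of *Jun* and the other NO samples 179 and 399. Of the 16 targets, 4 rose in NO vs. DM, namely *Rnf43*, *Wif1*, *Cd44* and *Jun*, next to 6.78% of all genes tested. The other 12 did not pass both thresholds. Some missed the fold threshold alone, *Tnfrsf19* as higher in NO (0.98 ± 0.26, adjusted p = 0.0293). *Myc* (-0.81 ± 0.22, adjusted p = 0.0318) and *Ccnd1* (-0.56 ± 0.15, adjusted p = 0.032) did so as lower in NO. Higher values in NO than in DM were thus not a property of every listed target.

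Among secreted antagonists, 9 of which were tested, *Sfrp4* had its highest values in DM, as *Notum* and *Lef1* did, but its lowest mean in GS. It had 207, 205 and 209 normalised read counts in GS, 513, 571 and 553 in DM, and 317, 128 and 266 in NO. *Sfrp4* rose in DM vs. GS (1.39 ± 0.27, adjusted p = 0.0099) and fell in NO vs. DM (-1.30 ± 0.27, adjusted p = 0.0119), lost without NO replicate 2, where its difference was -0.91. *Sfrp1* fell in NO vs. GS (-1.14 ± 0.31, adjusted p = 0.0243), a call lost without any 1 GS sample or NO replicate 2, where the difference was -0.68. Of 18 receptors tested, *Fzd10* fell in DM vs. GS (-1.38 ± 0.20, adjusted p = 0.0016), with means of 1764.7, 683.3 and 929.3 in GS, DM and NO. In DM vs. GS, *Lgr4* (0.95 ± 0.16, adjusted p = 0.00421), *Fzd7* (0.95 ± 0.19, adjusted p = 0.00996) and *Ror2* (-0.85 ± 0.16, adjusted p = 0.00651) missed the fold threshold alone. So did *Lgr4* (-0.84 ± 0.16, adjusted p = 0.00813) and *Fzd7* (-0.88 ± 0.19, adjusted p = 0.0123) in NO vs. DM. *Ror1* rose in NO vs. GS (2.16 ± 0.59, adjusted p = 0.0251), from values of 1 to 7 in GS, lost without GS replicate 2 or 3 or NO replicate 2 or 3.

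Wnt ligand genes, which act upstream of the members, were mostly low in GS and DM and higher in NO. In DM vs. GS 2 of 16 tested rose and 1 fell. Against GS, 11 rose and 1 fell in NO, and 9 rose against DM. Among all genes, 10.1% rose and 1.64% fell in NO against GS, and 6.78% rose against DM. *Wnt3* had 8, 8 and 4 normalised read counts in GS, 1, 1 and 3 in DM, and 38, 581 and 162 in NO, and rose in NO vs. DM by 5.94 ± 0.78 (adjusted p = 0.00212). *Wnt3a*, the ligand that sustains *T* in the embryo, had 24, 39 and 22 in GS, 14, 23 and 27 in DM, and 50, 119 and 72 in NO. It rose in NO vs. DM by 1.82 ± 0.39 (adjusted p = 0.013), lost without DM replicate 1, and its rise in NO vs. GS (1.43 ± 0.39, adjusted p = 0.025) was lost without GS replicate 1 or 3 or NO replicate 2 or 3. *Wnt5b* fell in DM vs. GS (-1.73 ± 0.30, adjusted p = 0.00483) and in NO vs. GS (-2.08 ± 0.30, adjusted p = 0.00115). The sum of the ligands was 603, 3296 and 1301 in NO, 312 to 407 in DM and 414 to 524 in GS, so it was higher in NO than in GS, whereas *Cdx1*, *T*, *Sp5* and *Axin2* were lower in NO than in GS.

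**Figure D4:**
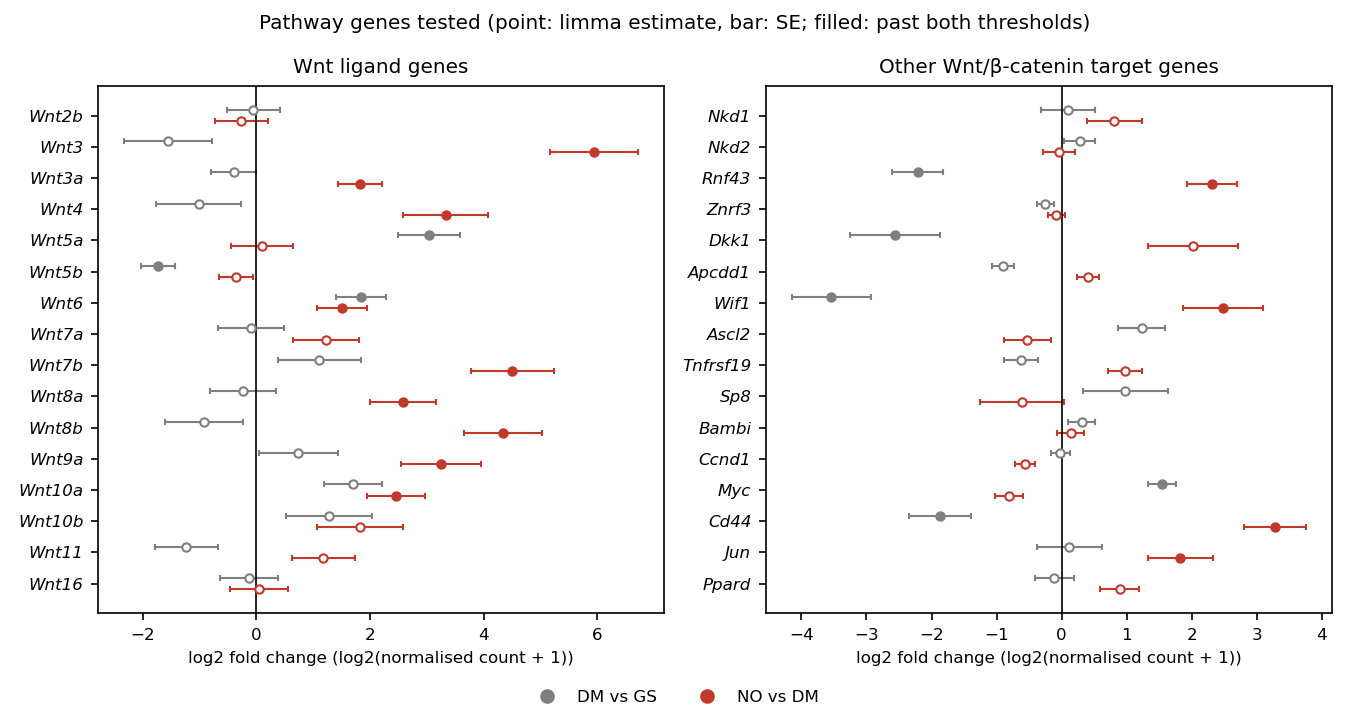
Log2 fold change (x axis, on log2(normalised count + 1)) of the Wnt ligand genes (left) and other Wnt/β-catenin target genes (right) that were tested, in DM vs. GS (grey) and NO vs. DM (red). Points are limma estimates with n = 3 per medium, bars are SE, and filled points passed both thresholds. *Rnf43*, *Wif1* and *Cd44* lie left of 0 in DM vs. GS and right of 0 in NO vs. DM, and 9 ligand genes have filled red points.

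Genes that accompany *T* and the Cdx genes in the tail bud did not share the pattern as a list. Of 11 tested, *Fgf17* rose (1.26 ± 0.26, adjusted p = 0.0124) and *Eomes*, a T-box paralogue of *T*, fell (-1.06 ± 0.22, adjusted p = 0.0148) in DM vs. GS, calls lost without GS replicate 1 or 3 or DM replicate 3 for *Fgf17*, and GS replicate 2 or 3 or DM replicate 1 or 3 for *Eomes*. *Eomes* had 229, 308 and 298 normalised read counts in GS, 111, 170 and 122 in DM, and 90, 91 and 118 in NO, and in contrast to *T* its mean was not higher in NO than in DM. The list's median in DM vs. GS was -1.06, next to 0.00 over all genes. *Msgn1* and *Fgf8*, which mark the paraxial mesoderm and tail bud, were at or below 3 and 8 normalised counts in every sample. Of 14 paralogues of the members tested, *Eomes* alone passed in DM vs. GS, and *Sp9*, a relative of *Sp5*, rose in NO vs. DM (3.81 ± 0.63, adjusted p = 0.00446) from 3, 1 and 1 to 18, 89 and 25. *Sp1*, a widely expressed Sp gene, had between 5607 and 8360 in all 9 samples.

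Of 8 pluripotency genes that Tcf7l1 is known to repress, and that inhibition of GSK-3 therefore releases, *Tfcp2l1* fell in DM vs. GS (-1.47 ± 0.18, adjusted p = 0.000714) and NO vs. GS (-1.25 ± 0.18, adjusted p = 0.0013), the latter no longer past the fold threshold after quantile normalisation. It kept 9340 to 12742 normalised counts in DM next to 30213 to 31982 in GS, a much smaller difference than that of *Cdx1*. *Nr0b1* rose in DM vs. GS (1.41 ± 0.21, adjusted p = 0.00229), and the other 6 genes did not pass both thresholds in any comparison. Some of these missed the fold threshold alone. They were *Nanog* (-0.80 ± 0.19, adjusted p = 0.0311) and *Nr5a2* (-0.60 ± 0.13, adjusted p = 0.0198) in DM vs. GS. *Nr5a2* did so in NO vs. GS too (-0.62 ± 0.13, adjusted p = 0.00842), and *Tbx3* in NO vs. DM (0.47 ± 0.13, adjusted p = 0.0383). The list's median was -0.45 in DM vs. GS, also -0.45 for NO against GS, and -0.02 for NO against DM.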

How the data were processed

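Total RNA of mESC was sequenced by the authors on an Ion Torrent Proton after depletion of ribosomal RNA, in GS, DM and NO with 3 samples each. According to the labels and the methods of the study, reads were trimmed with Reaper, checked with FastQC 0.11.2, aligned to GRCm38 (mm10) with STAR 2.4.0a and counted over exons with featureCounts 1.4.5-p1, ambiguous reads excluded. The deposited values are a normalised score, read counts divided by DESeq2 size factors and rounded by the authors. They are not raw counts, so no count model was fitted. A column of sums was not used.

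With limma 3.58.1 (R 4.3.3), linear models were fitted to log2(value + 1) of 18156 genes with a mean above 5, with all 9 samples in one fit, 3 media as groups and trended empirical Bayes moderation. Tests were two-sided with Benjamini-Hochberg adjustment over all genes, and genes were called at an adjusted p under 0.05 and a log2 fold change of at least 1 in size. This scale understates changes of low genes. The procedure was tested on simulated data for DM vs. GS only, with the same dispersion in all media and no low gene changed. That simulation therefore gives no information on the calls in NO or on genes of few reads. The members and gene lists were chosen with earlier results of these data known. Of each list, the genes past both thresholds were eligible to be named, 4 per comparison with the smallest adjusted p, with cell type markers taken likewise. Some pathway genes and the 5 genes most correlated with *Cdx1* and with *T* were also taken. *Elf5*, *Plac1*, *Postn*, *Lum*, *Twist2*, *Msgn1*, *Fgf8*, *Sp1*, *Nr5a2* and *Tbx3* were named after their values were seen. So were *Tle1*, *Tle4*, *Ctbp2*, *Lgr4*, *Fzd7*, *Ror2*, *Kdr*, *Apcdd1*, *Ccnd1* and *Tnfrsf19*.

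Depth was estimated from the spacing of low values, which gives the worth of 1 read. The 3 samples per medium set the precision, and for values of a few reads also the depth. NO and DM samples of the same number had weakly correlated deviations from their group means (0.16, 0.17 and 0.30 for replicates 1, 2 and 3). Samples of unlike number were not compared, so a pairing of these media is not established. The number was therefore used as a block only as an alternative. Pairs with GS had correlations of -0.23 to 0.05. Alternatives comprised the block, only the 6 samples compared, other pseudocounts, filters, moderation and scaling, and leaving out each sample. Gene positions came from GENCODE M21. Upstream windows were cut to the 250 bases before the start, although 50 bases after it had been planned too.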

Additional observations from a re-analysis of the deposited data

How the results depend on the processing

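Of the counts of members past both thresholds, the 6 in DM vs. GS and the 7 for NO against GS stayed within 1.5 times under the 10 alternatives other than leaving out a sample, at 5 to 6 and 5 to 7. That of 6 in NO vs. DM was 3 with only the 6 samples compared and 2 after quantile normalisation. Leaving out 1 sample at a time gave 6 to 6 members in DM vs. GS, 4 to 7 for NO against GS and 3 to 6 for NO against DM. For the other pathway genes, the counts of 10, 16 and 14 became 7 to 13, 9 to 22 and 10 to 24. A minimum mean of 50, which tests fewer genes, gave 9 for NO against GS and 9 for NO against DM, and no minimum fold change gave 17 for DM against GS and 24 for NO against DM. No member's fold change that had passed changed its sign under these alternatives.

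With the replicate block, members past both thresholds numbered 6, 7 and 7, and other pathway genes 8, 16 and 14, in the same order. In DM vs. GS, where deviations of samples with the same number were not positively correlated as a whole, *Cd44* and *Dkk1* had adjusted p-values of 0.0609 and 0.0619 with the block. It ended no call of a named gene in NO vs. DM. Over all genes, quantile normalisation moved the share of calls that were higher from 86.0% to 67.5% for NO against GS and from 79.3% to 65.1% for NO against DM, and the cause was not tested. Quantile normalisation also ended the calls of *Fgf17* and *Dkk1* in DM vs. GS, of *Tfcp2l1*, *Wnt3a*, *Ror1*, *Mesp1* and *Col1a1* for NO against GS, and of *Wif1* and *Hand1* for NO against DM. The fit of only the 6 samples compared ended those of *Wif1*, *Jun*, *Gata3*, *Gcm1*, *Hand1* and *Col1a1* for NO against DM and of *Sfrp1* for NO against GS. Low values limit *Cdx2*, *Cdx4*, *T*, *Sp5* and *Lef1*, for each of which at least 1 medium held 25 estimated reads or fewer.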
